A study of Mus musculus with 16 samples.

Results

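The accessible regions described here lie at 10 genes of the FGF and ERK pathway: Fgf4, Fgfr1, Fgfr2, Spry2, Spry4, Spred1, Dusp6, Etv4, Etv5 and Egr1. A region was a member if its centre lay in the body of a gene or within 100 kb of any of its transcription start sites (TSSs) in GENCODE M21 on mm10. This rule found 296 of the 81132 regions in the list, and no region was counted for more than 1 gene. ATAC-seq, in which the Tn5 transposase cuts and tags open chromatin, was run on SBROS cells, a knock-in line made from CGR8 mouse embryonic stem (ES) cells in which both SOX2 alleles carry a SNAP-tag and a single OCT4 allele a HALO-tag. Cells in G1 were sorted into 4 populations with 3 replicates each. SHOH and SHOL cells had a high level of tagged SOX2 and SLOH and SLOL cells a low one, and tagged OCT4 was high in SHOH and SLOH and low in SHOL and SLOL. All 12 libraries came from cells grown in serum with LIF, the GSK3 inhibitor CHIR99021 at 3 µM and the MEK inhibitor PD184352 at 0.8 µM, so the kinase directly above ERK was inhibited in every population. The list gives only the position of each region, merged over all libraries. Depth and replicate spread are unknown from it, the populations could not be compared, and every value below is a description of the merged set.

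FGF4, secreted by ES cells, binds FGF receptors, which signal through RAS, MEK and ERK and prime cells to leave naive pluripotency. ERK induces its own brakes: the Sprouty and SPRED proteins act upstream of MEK, and the phosphatase DUSP6 removes phosphate from ERK itself. The ETS factors ETV4 and ETV5 and the zinc finger factor EGR1 are transcriptional targets through which the signal reaches the genome, and Fgf4 is a classic target of SOX2 and OCT4.

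Sequence sites were searched on both strands by their letters. They were the octamer ATGCAAAT bound by OCT4, its variant ATGCNAAT, SOX (CCATTGT or CCTTTGT) and the SOX core (CATTGT or CTTTGT), ETS (CCGGAAG or CAGGAAG), TCF (CTTTGAT), ESRRB (TCAAGGTCA), STAT (TTCCNGGAA), AP-1 (TGANTCA), CRE (TGACGTCA), SP and KLF (GGGCGGGG), and the CArG box bound by serum response factor. Every octamer is also an octamer variant, every SOX site holds a SOX core, and an ETS and a STAT site can share letters. In 300 bp around the centre, which for narrower regions takes in flanking DNA, the octamer occurred in 2.15% of all regions in the list, the octamer variant in 3.98%, SOX in 12.7%, the SOX core in 32.9% and ETS in 20.2%. The corresponding shares were 4.57% for TCF, 1.85% for ESRRB, 1.31% for STAT, 8.52% for AP-1, 0.765% for CRE, 9.31% for SP and KLF and 1.18% for the CArG box. Over whole regions, the search used below for single genes unless 300 bp are named, the octamer was in 2.66% of the list, the octamer variant in 4.97%, the SOX core in 39.3%, ETS in 25.7% and ESRRB in 2.24%. A match describes the letters and does not show binding.

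The 5 stretches below are shown because they carry several of these sites near a ligand, a brake or a target gene. All are on the plus strand of mm10, with sites in capitals. At Fgf4, 30 bases of the 3' UTR (chr7:144864388-144864417) hold a SOX core and an octamer variant 4 bases apart. At Spry2, a stretch in the intergenic DNA upstream of the gene (chr14:105900761-105901060) holds a TCF site, an ESRRB site and 2 ETS sites. The Spred1 stretch, also intergenic and upstream (chr2:117119632-117119931), begins with an ETS and a STAT site that overlap and has another ETS site and 2 SOX cores. Upstream of Dusp6, intergenic DNA (chr10:99261317-99261616) holds 2 CArG boxes, an ETS site and an octamer. The Etv5 stretch spans a coding exon and flanking intron (chr16:22411732-22412031) and holds an SP and KLF site, an octamer, a SOX site and a CRE.
Fgf4 3' UTR site: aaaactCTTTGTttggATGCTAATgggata
Spry2 upstream: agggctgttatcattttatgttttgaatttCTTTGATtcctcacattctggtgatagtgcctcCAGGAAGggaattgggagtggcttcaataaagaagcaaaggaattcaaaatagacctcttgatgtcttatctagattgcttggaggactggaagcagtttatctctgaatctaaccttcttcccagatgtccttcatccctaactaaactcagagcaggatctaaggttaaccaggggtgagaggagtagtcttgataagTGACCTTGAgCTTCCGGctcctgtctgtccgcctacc
Spred1 upstream: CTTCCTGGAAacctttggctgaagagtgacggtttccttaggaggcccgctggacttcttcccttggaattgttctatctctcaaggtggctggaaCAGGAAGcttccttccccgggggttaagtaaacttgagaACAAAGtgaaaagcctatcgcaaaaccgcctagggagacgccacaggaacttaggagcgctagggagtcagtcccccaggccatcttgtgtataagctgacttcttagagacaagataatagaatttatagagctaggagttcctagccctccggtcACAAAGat
Dusp6 upstream: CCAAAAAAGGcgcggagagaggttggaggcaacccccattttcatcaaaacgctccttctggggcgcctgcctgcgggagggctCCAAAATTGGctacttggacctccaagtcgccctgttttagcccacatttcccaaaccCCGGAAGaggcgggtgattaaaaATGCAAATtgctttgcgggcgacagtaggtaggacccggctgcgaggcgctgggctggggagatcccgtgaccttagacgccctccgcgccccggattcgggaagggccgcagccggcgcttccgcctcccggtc
Etv5 coding exon: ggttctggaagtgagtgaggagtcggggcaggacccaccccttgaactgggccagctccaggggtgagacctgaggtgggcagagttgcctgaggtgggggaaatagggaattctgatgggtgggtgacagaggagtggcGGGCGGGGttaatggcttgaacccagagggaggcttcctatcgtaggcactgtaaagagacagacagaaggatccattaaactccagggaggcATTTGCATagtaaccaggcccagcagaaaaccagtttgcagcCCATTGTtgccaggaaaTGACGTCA

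Promoter sequences of RefSeq (GRCm38.p6) were matched for 6 of the 10 genes, Fgf4, Fgfr2, Spry2, Spred1, Dusp6 and Etv5. The others were Fgfr1, Spry4, Etv4 and Egr1. Fgf4 and Spry2 are shown as the ends of a range. All 250 bases before the Fgf4 start (chr7:144861136-144861385, plus strand) lay in an accessible region, and 0 of the 250 before the Spry2 start (chr14:105896820-105897069, minus strand) did, although they held 21 and 23 CpGs. Others tied with them: all 250 bases at Dusp6 and before an Etv5 start lay in a region, and 0 at Fgfr2, which held 2 CpGs. The Fgf4 stretch had none of the sites searched. That of Spry2 had a SOX core, in capitals, which 25.2% of all RefSeq promoters hold in the same 250 bases.
Fgf4 promoter: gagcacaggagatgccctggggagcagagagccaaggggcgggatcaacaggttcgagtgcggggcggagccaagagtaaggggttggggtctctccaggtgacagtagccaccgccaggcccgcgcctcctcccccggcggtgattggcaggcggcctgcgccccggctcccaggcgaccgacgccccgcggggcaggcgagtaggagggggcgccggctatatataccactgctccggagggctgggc
Spry2 promoter: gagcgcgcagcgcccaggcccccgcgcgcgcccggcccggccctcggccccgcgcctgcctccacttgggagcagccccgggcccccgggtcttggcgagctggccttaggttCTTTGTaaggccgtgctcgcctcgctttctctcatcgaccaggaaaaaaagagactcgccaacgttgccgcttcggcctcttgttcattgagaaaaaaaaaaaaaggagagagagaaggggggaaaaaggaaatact

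The number of regions was set in part by the annotation of Fgfr2. A single annotated transcript starts at position 133123350 of chromosome 7 and stretches the annotated gene to 2960900 bp, so that 148 of the 296 regions counted for Fgfr2. Without this transcript the gene body was 103813 bp and Fgfr2 had 13 regions, and the 10 genes together had 161. The remaining 135 regions lay in the stretch of this long transcript and its window alone. This narrower set was defined after the data were seen, and the genes are described with it one at a time.

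Fgf4 had the most regions, 27, and Etv4 the fewest, 9. Dusp6 had 20, Spry2 and Spry4 17 each, Etv5 16, Fgfr1 and Egr1 15 each, Fgfr2 13 and Spred1 12. For a comparison with other genes, regions were counted within 100 kb of the main TSS, that of the principal transcript. Over 21938 protein-coding genes the median was 10 (quartiles 5 and 16), and the 10 genes had a median of 14.5, with 8 of them above 10. Fgf4 with 27 regions exceeded 97.8% of genes and Dusp6 with 20 exceeded 87.3%. Etv4 with 8 exceeded 36.8%.

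**Figure D1:**
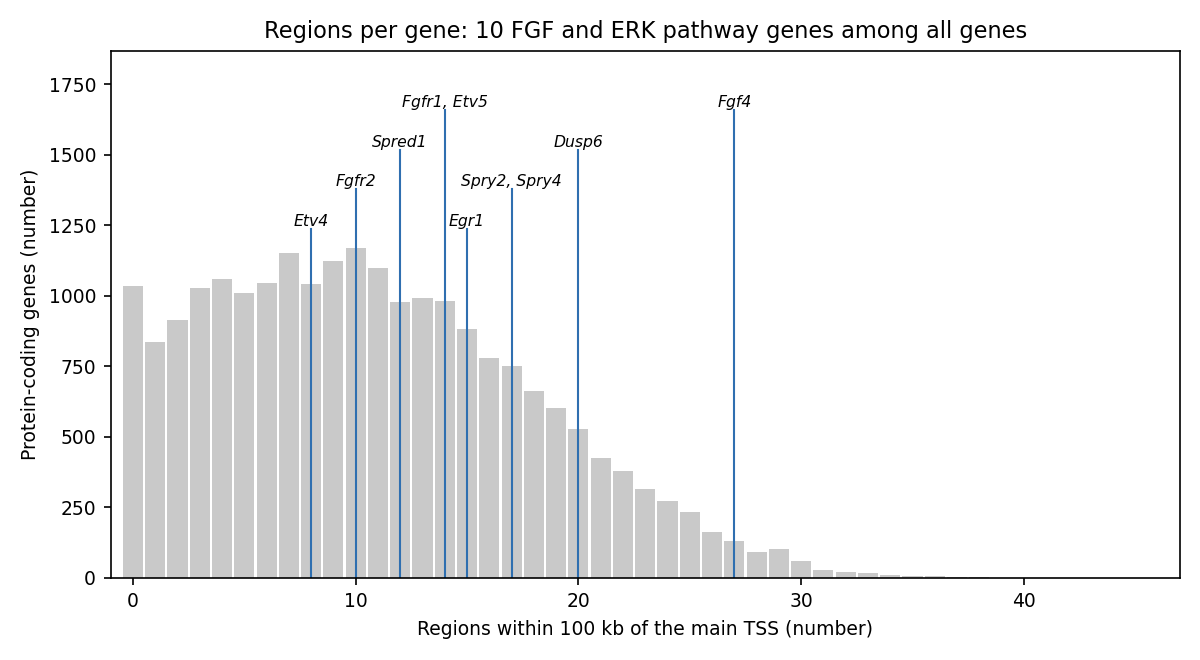
Number of protein-coding genes (y axis) by the number of regions within 100 kb of the main TSS (x axis, grey bars), with blue lines at the 10 FGF and ERK pathway genes. Fgf4 lies at 27 regions, and the median of all 21938 genes is 10.

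In width the regions were close to the list, and fewer of them were mostly repeat. Their median width was 351 bp by the whole rule and 357 bp without the long Fgfr2 transcript, against 355 bp in the list. Of the 161 regions, 29 were centred in a promoter, the 1000 bp before and the 100 bp after a TSS, which is 18.0% (95% Wilson interval 12.8 to 24.7) against 21.0% of the list. By the whole rule 20.3% were in a promoter. Introns held 37.9% of the 161 and intergenic DNA 37.3%, against 35.1% and 35.2% of the list. Classes were still set with the long Fgfr2 transcript in the annotation. Fgfr2 regions centred at -7154, -58676 and -59922 bp from the main TSS lie in its body, upstream of the other Fgfr2 transcripts, and counted as intron. By the whole rule introns held 50.7% and intergenic DNA 20.6%, and the 95% intervals of both exclude the list shares. The whole rule adds 135 regions taken from the body of the long transcript and its window. In that body a centre outside promoters and exons counts as intron, so this difference was largely set by the rule. Regions made mostly of repeats were 6.21% of the 161 and 13.7% of the list. These intervals cover counting error only.

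**Figure D2:**
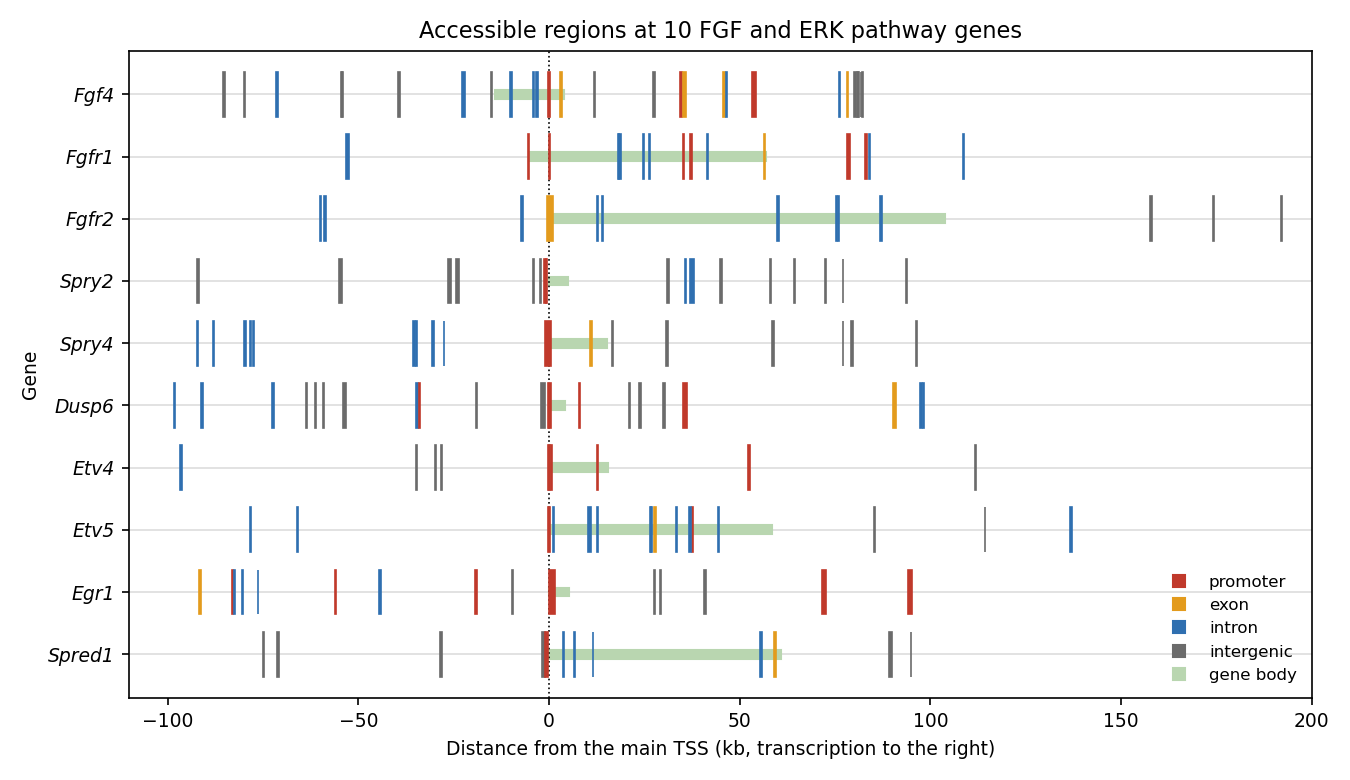
Position of each of the 161 regions, drawn to scale, by distance in kb from the main TSS (x axis) for each gene (rows), coloured by the class at the centre, with the gene body in green. The classes were set with the long Fgfr2 transcript, and the green body leaves it out. Regions of Fgf4 extend on both sides of the gene, those of Etv5 lie mainly in its body, and 3 regions of Fgfr2 lie 157811 to 192148 bp downstream of the main TSS, within 100 kb of other TSSs of the gene.

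Fgf4 encodes the main FGF ligand of ES cells. Its main TSS was in a region of 522 bp (chr7:144861115-144861636), and another region of 396 bp (chr7:144864320-144864715) lay in the 3' UTR, centred at 3131 bp from the TSS. The 3' UTR of Fgf4 is known for an enhancer at which SOX2 and an octamer factor bind side by side. The region there held 2 octamer variants, a SOX core and an ESRRB site. The SOX core and the octamer variant nearer to the middle of the region are those printed above, with the core starting at 3008 bp from the TSS. Their spacing of 4 bases fell outside the limit of 3 bases set for such pairs, under which none of the 296 regions held a pair. With up to 10 bases between them, a limit chosen after seeing the data, this was the single pair in the 296 regions, and 103 regions of the list (0.127%) held such a pair.

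Elsewhere in the Fgf4 window, 4 further regions lay between -15098 and -3140 bp, negative values being upstream. Of these the region at -9909 bp (chr7:144851259-144851695), in an intron of a longer Fgf4 transcript, held an ESRRB and an ETS site. The widest region outside promoters was 683 bp, centred at -85223 bp in intergenic DNA, and held none of the sites searched. SOX sites occurred in 8 of the 27 regions, against 12996 of the 81132 in the list. Of 21938 genes 95, Fgf4 included, had as many or more such regions within 100 kb. Such counts, here and at the genes below, are not corrected for the number of regions. They are given for selected motifs only, and for ETS at Etv4, for example, 18338 genes had as many or more. Only 7 of the 27 had the Fgf4 TSS as their closest. Another 7 had that of Ccnd1, which encodes cyclin D1, and these stood within 6065 bp of each other, from 76178 to 82242 bp downstream. The other ligand genes Fgf15 and Fgf3 were closest to 3 and 2 regions. The longest stretch without a region was 21941 bp.

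The receptor genes had fewer regions and differed in where these lay. Fgfr1, a main FGF receptor of ES cells, had its main TSS in a region of 424 bp (chr8:25518656-25519079), and 9 of its 15 regions were in the gene body. The widest outside promoters was 872 bp, in an intron of a neighbouring gene at -52908 bp. It held an octamer, as did the region at -5350 bp, 86 bp from another Fgfr1 TSS, and an intronic region at 26344 bp. Of 21938 genes 105, Fgfr1 included, had 3 or more such regions within 100 kb. In the 300 bp around the centre, 2 of the 3 still held it. None of the 15 held a SOX site. The window also took in the promoters of Letm2 and Nsd3, with regions of 816 and 614 bp.

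Fgfr2, a receptor more prominent in the primitive endoderm, had its main TSS in a region of 1620 bp (chr7:130265005-130266624), which was centred in the 5' UTR at 377 bp and was also its widest outside promoters. The TSS shared by 13 Fgfr2 transcripts, at position 130261857, lay 3148 bp from the nearest region. Of its 13 regions 6 were intronic to the main transcript, at 12802 to 87003 bp, and none held an octamer, SOX, TCF or ESRRB site. The longest stretch without a region, 70411 bp, began at 87219 bp. No other coding gene had its main TSS within 100 kb.

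Spry2, a Sprouty inhibitor of receptor signalling, had no region over its only TSS. The nearest began 453 bp away (chr14:105897272-105897511), followed upstream by a region of 366 bp centred at -988 bp, 359 bp at -2135 bp and 385 bp at -4092 bp. The last of these contains the Spry2 stretch printed above. ETS sites occurred in 9 of the 17 regions, a number that 780 of 21938 genes reached, Spry2 included. In 300 bp around the centre they occurred in 7. The widest region outside promoters was 1000 bp (chr14:105858905-105859904), at 37415 bp downstream in an intron of the lincRNA gene Gm48970. It held an octamer, 2 ETS sites, a TCF and an ESRRB site. Spry2 had no other coding gene in its window, and 8 of the 17 regions had its TSS as the closest.

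The main TSS of Spry4, another Sprouty gene, lay in the widest of the 161 regions, 1707 bp (chr18:38600791-38602497). This region held 3 SOX sites, between -890 and -558 bp, and an ETS site. It was shared with the lincRNA gene AC133601.1, whose TSS was 41 bp from the centre. None of the 17 regions had the Spry4 TSS as the closest. AC133601.1 was closest to 10, the pseudogenes AC134576.2 and AC151580.1 to 3 each and Gm27369 to 1. The widest outside promoters was 589 bp at -30322 bp, and an octamer lay in a region at -79760 bp, 69.6% of which was repeat. The region of 379 bp at 11057 bp lay in a coding exon and held an ETS site. ESRRB sites occurred in 2 regions, at -35438 and 77068 bp.

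Spred1 encodes an inhibitor that recruits the RAS GTPase-activating protein neurofibromin. Its main TSS was 373 bp from the nearest region (chr2:117120442-117121001), which was 560 bp wide, and of the 250 bases before the RefSeq start 181 were in a region. The neighbouring upstream region of 639 bp (chr2:117119594-117120232) was its widest outside promoters and held the printed ETS and STAT sites. With 3 short intronic regions of 133, 155 and 219 bp these made up a run of 5 within 13439 bp, after which no region occurred for 43775 bp. A region in the 3' UTR was 352 bp wide, and octamer variants occurred in 2 of the 12 regions without an octamer in any.

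Dusp6 encodes the phosphatase that acts on ERK. Its main TSS was in a region of 776 bp (chr10:99262919-99263694), and its widest region outside promoters, 957 bp (chr10:99261243-99262199), was centred at -1510 bp. In that upstream region CArG boxes started at -1914 and -1830 bp and an octamer at -1749 bp. Regions with at least 2 CArG boxes numbered 24 in the whole list. Of the 20 regions at Dusp6, 5 held an octamer, at -33995, -1510, 23880, 35648 and 90571 bp. Only 2 of 21938 protein-coding genes, Dusp6 included, had 5 or more such regions within 100 kb. At Dusp6, those at -33995 and 35648 bp were centred in promoters of other genes and that at 90571 bp in an exon of another. In the 300 bp around the centre 3 of the 5 held the octamer. ETS sites occurred in 8 regions and SOX cores in 12. The 300 bp search found them at 5 and 11 regions, of which 4 and 9 are among those 8 and 12 and the others had the site in flanking DNA only. Dusp6 had no other main TSS of a coding gene within 100 kb, yet its own TSS was the closest to only 2 regions. Poc1b and the lincRNA gene B530045E10Rik were closest to 6 each.

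Etv4 and Etv5 encode ETS factors induced by FGF signalling, and their regions were arranged differently. Etv4 had its main TSS in a region of 730 bp (chr11:101784948-101785677) and a further 2 in its body, and the widest outside promoters was 361 bp, at -96520 bp. It had no octamer, TCF or ESRRB site in its 9 regions. At Etv5 the main TSS was in a region of 671 bp (chr16:22439401-22440071), and 12 of the 16 regions had an Etv5 TSS as the closest, the most of the 10 genes. In its body lay 10 regions, among them 6 within 11420 bp from 26387 to 37806 bp. That run included the coding exon region of 494 bp at 27885 bp (chr16:22411588-22412081) from which the Etv5 stretch was printed, and a neighbour of 281 bp with an ESRRB site. The widest outside promoters, 656 bp in an intron at 10569 bp, held SOX, ETS, STAT and SP and KLF sites. Upstream of the Etv5 promoter region no region occurred for 65541 bp.

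Egr1 encodes an immediate early factor induced within minutes of ERK activation. The TSS of its principal transcript was 43 bp outside a region of 1429 bp (chr18:34859866-34861294), and its other TSS, at position 34861207, was inside it. This region held 5 CArG boxes and 4 ETS sites. Counted from this other TSS, the CArG boxes started at -407, -369, -353, -105 and -83 bp. Of the ETS sites 3 stood between or beside them, at -395, -320 and -94 bp. The region was the only 1 of 81132 with 4 or more CArG boxes, and 2 had 3 or more. Among the 3856 regions over 1000 bp, 155 (4.02%) had any. All 5 lay at least 220 bp from the centre, so the search in 300 bp around the centre missed them. Of all 15 regions at Egr1, the TSS of Kdm3b was the closest to 6, that of Egr1 to 4 and that of Etf1 to 2. The widest outside promoters was 455 bp, in Kdm3b at -82479 bp, and SP and KLF sites occurred in 5 of the 15 regions, 6 of which were promoters. Over whole regions they occurred in 12.7% of the list and 35.4% of its promoter regions.

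**Figure D3:**
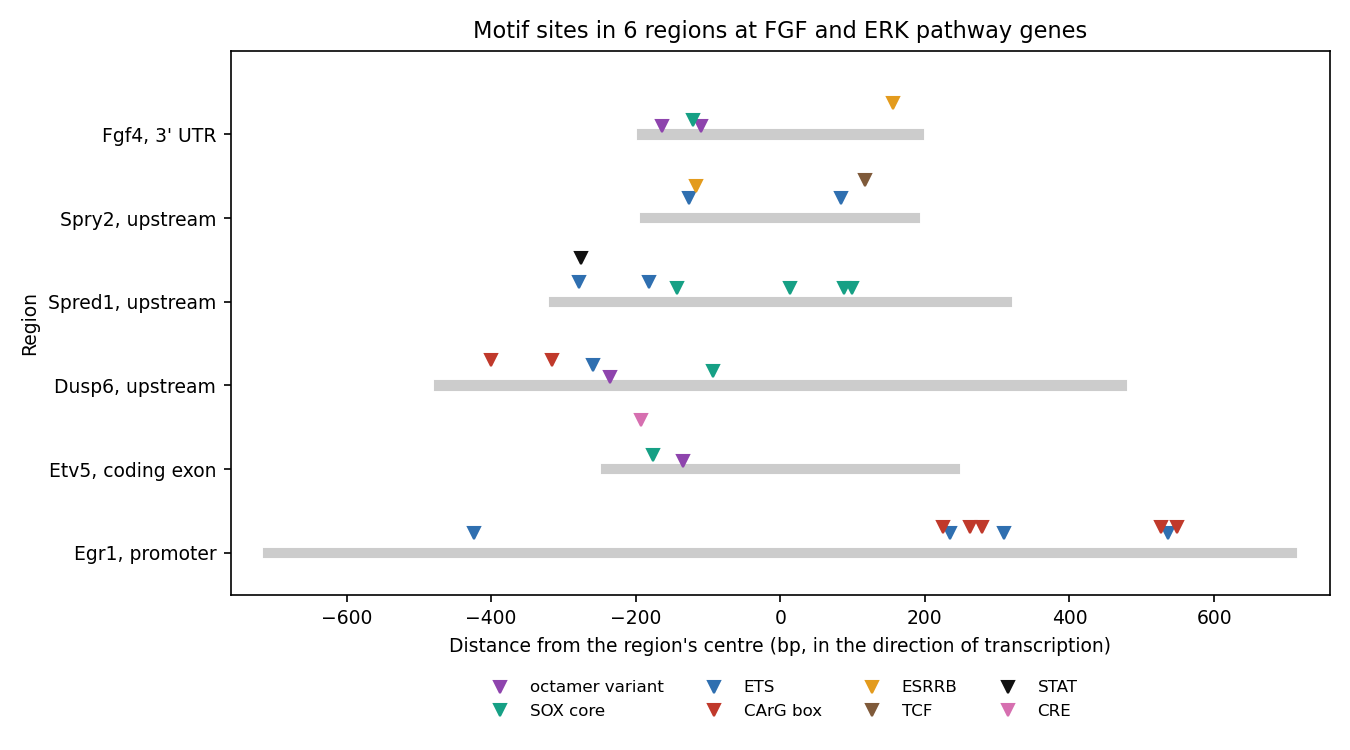
Motif sites (triangles, coloured by motif) along 6 regions (grey bars, to scale), by distance in bp from the centre of the region in the direction of transcription (x axis). The 5 CArG boxes of Egr1 fall in a group of 3 and a group of 2 near its downstream end, and those of Dusp6 lie with an ETS site and an octamer.

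Region width also varied among the genes. The median width ran from 286 bp at Etv5 to 424 bp at Dusp6. Regions over 1000 bp numbered 6 of the 161 (3.73%), against 4.75% of the list. By the whole rule they were 18 of the 296 (6.08%), and no interval was computed for these shares. The 6 were 3 at Egr1, where the promoters of Etf1 and Hspa9 had the other 2, and 1 each at Spry4, Fgfr2 and Fgf4, the last over the promoter of LTO1. The main TSS was in a region at 7 of the 10 genes, all but Spry2, Spred1 and Egr1, against 53.6% of protein-coding genes.

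**Figure D4:**
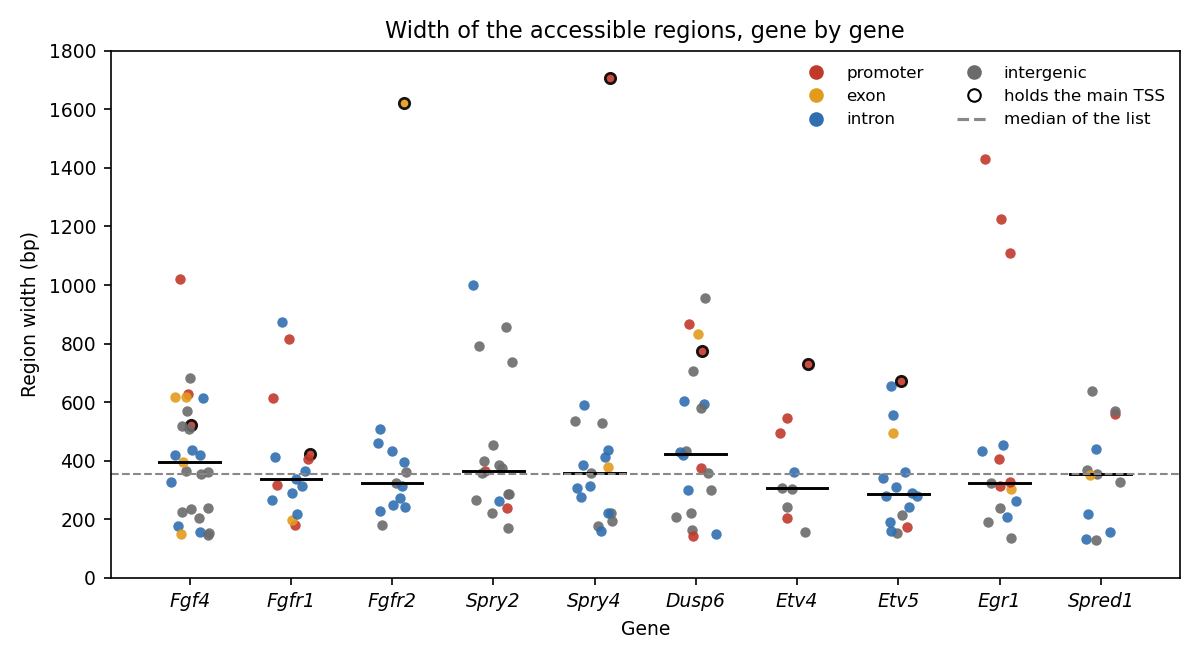
Width in bp (y axis) of each of the 161 regions by gene (x axis), coloured by class, with a black line at the median of each gene, a black ring on the region that holds the main TSS and a dashed line at the list median of 355 bp. The widest regions, 1707 bp at Spry4 and 1620 bp at Fgfr2, hold the main TSS.

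Over the genes together, most motif shares were close to those of the list. In 300 bp around the centre, 15 of the 296 regions held the octamer variant, 5.07% (95% Wilson interval 3.09 to 8.19), as did 6.83% (3.86 to 11.8) of the 161. The SOX core occurred in 31.8% (26.7 to 37.3) and 33.5%, and ETS in 19.3% (15.2 to 24.1) and 19.9%. In each case the interval of the 296 included the share of the list given above. ESRRB was the exception, with 3.72% of the 296 (2.09 to 6.53) against 1.85%, but the interval of the 161 (1.72 to 7.89) included that share. The octamer was in 3.04% of the 296 (1.61 to 5.68) and 4.35% of the 161 (2.12 to 8.70). Over whole regions the octamer variant was in 7.77% of the 296 (5.23 to 11.4) and 9.94% of the 161 (6.21 to 15.5), the octamer in 4.73% (2.84 to 7.78) and 7.45% (4.31 to 12.6), and ESRRB in 4.39% (2.58 to 7.37) and 4.97% (2.54 to 9.50), and these intervals lie above the whole-region shares of the list. Each rested on few regions. Without Dusp6, which had 5 of the regions with an octamer, the octamer was in 3.26% (1.72 to 6.08) and 4.96% (2.43 to 9.89) and its variant in 6.52% (4.16 to 10.1) and 7.80% (4.41 to 13.4), intervals that include the list shares. Without Fgfr1 the intervals of the 296 also included them, at 3.91% (2.20 to 6.87) for the octamer and 7.12% (4.65 to 10.7) for its variant. That of the variant in the 296 did too without Spred1, at 7.39% (4.89 to 11.0). The intervals of the 161 without Fgfr1 or without Spred1 stayed above the list shares. The intervals of ESRRB included the list share without Spry2 or Spry4, with 2 such regions each, at 3.94% and 4.17%. Without Fgf4, also with 2, the interval of the 161 included it, at 4.48% (2.07 to 9.42), and that of the 296 did not. Leaving out a gene was added after seeing the data.

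**Figure D5:**
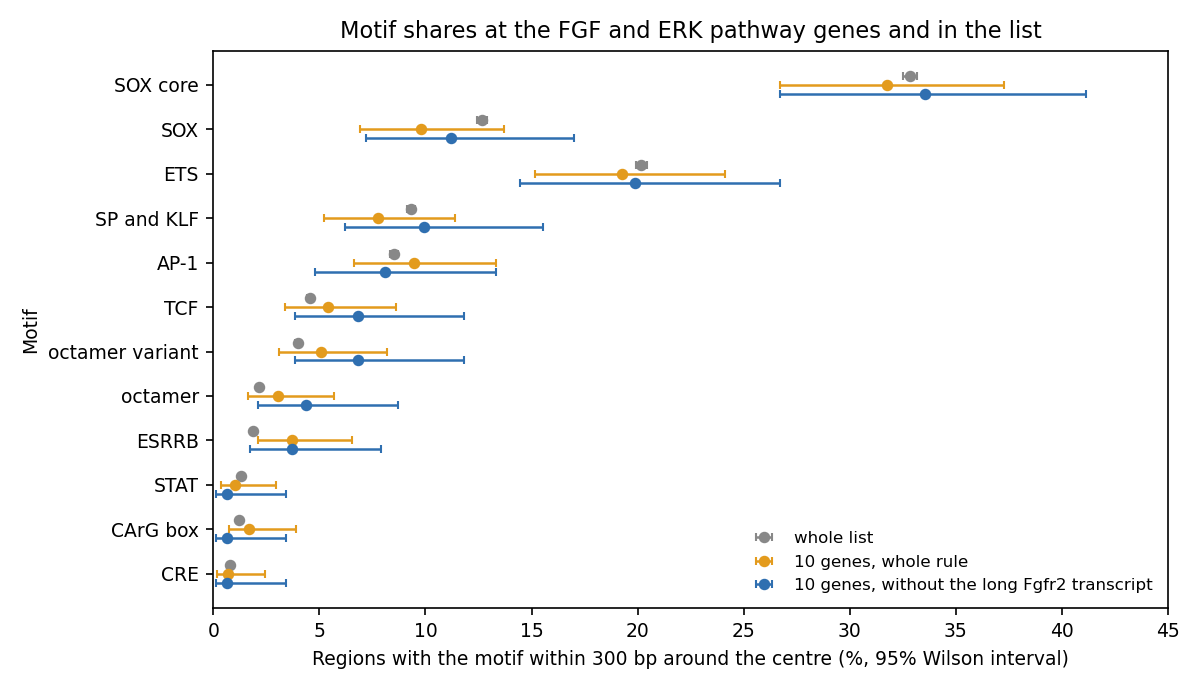
Percentage of regions with each motif in 300 bp around the centre (x axis) in the list, in the 296 regions of the whole rule and in the 161 without the long Fgfr2 transcript, with 95% Wilson intervals. The intervals of the 161 regions include the list share for each motif drawn, and ESRRB has 3.72% of the 296 against 1.85%.

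Of 59 further pathway genes, 58 were matched in the annotation, and Spry3 was not. Their median was 15 regions within 100 kb of the main TSS, from 5 to 31, with 45 of the 58 above the median of all genes. Of the 58, 42 had the main TSS in a region, where 53.6% of all protein-coding genes did. The share with an accessible main TSS was lowest for the ligands, 2 of 7, namely Fgf2 and Fgf5. Among the ligands Fgf15 had the most regions, 24, and Fgf2 the fewest, 7, and Fgf15 and Fgf3 share part of the Fgf4 window. Of the receptors Fgfr4 had 16 and Fgfr3 12. Among adaptors and exchange factors the range ran from 5 at Ptpn11, the phosphatase SHP2, to 31 at Shc1. Of the MEK, ERK and RSK kinases Map2k2 had 21 and Rps6ka3 5. In the group of inhibitors and phosphatases, Spred3 had 26 and Rasa1 5, and 9 of 11 had the main TSS in a region. The transcription factors and ERK targets had the highest median, 19.5, with 30 at Junb and 7 at Elk1. Of these genes, 15 of 16 had the main TSS in a region. All cells were grown with the MEK inhibitor, so any link between it and these counts was not tested. The counts include regions of neighbouring genes: Shc1 had 12 other coding main TSSs within 100 kb and Junb 16, against 0 at Dusp6 and 4 at Fgf4.

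Cell type markers were looked at by accessibility, which is not expression. Of 9 naive ES cell genes 6 had the main TSS in a region, among them Pou5f1, Zfp42 and Klf4, and Sox2, Nanog and Esrrb did not, where 53.6% of protein-coding genes did. The same held for 2 of 5 fibroblast genes, Col1a2 and Thy1, and for 2 of 4 primitive endoderm genes, Gata4 and Gata6. The median number of regions within 100 kb was 17, 12 and 8.5 in these lists and 10 over all protein-coding genes. With so few genes in each list, these counts do not establish the cell type.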

How the data were processed

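The authors aligned ATAC-seq reads to mm10 with STAR (version 2.5.3a), kept unique reads, removed duplicates with Picard, and found peaks in each library with MACS2 (2.1.1.20160309) on whole fragments. They merged the peaks with BEDOPS and left out those overlapping ChIP input peaks. No shift of read ends for Tn5 is named. The deposited list has 3 columns, chromosome, start and end, in base positions and not in read units, so it gives no depth for a region. The paper states only the range of reads sequenced per sample. The 4 ChIP-seq samples were not analysed here.

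Starts were written from 1. The centre set a region's class, with promoter taken before exon, intron and intergenic, and its closest TSS was sought over all annotated genes. Main TSSs were those of the APPRIS principal transcript. Analyses used Python (3.11.15), numpy (2.4.6), scipy (1.17.1), pysam (0.24.0) and matplotlib (3.10.9), and the counting was tested on simulated data. Named were all 10 genes, the region over each main TSS, the widest region outside promoters, SOX and octamer pairs, the pathway genes with the most and fewest regions in each role but 1, which is not reported here, and the main neighbours. Others were chosen after their values were seen. The members and lists were chosen with earlier results of these data known. No test was run. Alternatives were other windows, TSS sets, promoters, region definitions and search lengths.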

Additional observations from a re-analysis of the deposited data

How the results depend on the processing

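The share of regions with the octamer variant stayed within its 95% interval under all 6 alternatives, at 4.35% without Dusp6, an alternative chosen after seeing the data. Over whole regions, however, it was 7.77% with an interval (5.23 to 11.4) above the 4.97% of the list, while the 300 bp interval included the list share. Over all results 31 of 47 values stayed within the interval of the main value or, for counts, within 1.5 times of it. The number of regions was 60 when only the closest TSS counted and, chosen after seeing the data, 161 without the long Fgfr2 transcript. The median per gene, 16.5 by the whole rule, was 10 at 50 kb, 25 at 200 kb, 6 at 20 kb and 6 by the closest TSS. The share in promoters was 26.0% for 1000 bp to both sides of a TSS, 48.6% for 5000 bp and 14.5% for protein-coding transcripts. Median width was 387 bp for regions of at least 200 bp and 382 bp after joining neighbours. The SOX core was found in 38.5% of whole regions and 48.3% of 500 bp, and ETS in 25.7% and 29.4%. The count of SOX and octamer pairs went from 0 to 1 with up to 10 bases between them.

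No paired analysis was possible because the list holds no value per library. For the same reason leaving out each replicate was not run, and a region can come from any number of libraries. What depth limits is unknown from the list.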
